A study of Mus musculus with 18 samples.

Results

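The genes of DNA replication described here were 49 genes that mark and license origins, unwind and copy DNA, join the copied strands and supply deoxynucleotides. They were taken by symbol from a named list, and each of the 49 was found among the 55450 genes counted in 15 mouse mammary tumors and 3 normal mammary glands. Each had enough counts to be kept among the 19186 genes tested. By role, 6 belonged to the origin recognition complex, 3 to helicase loading and its inhibitor, 6 to the MCM2-7 helicase, 8 to origin firing, 9 to the polymerases and primase, 6 to the sliding clamp and its loader, 6 to RPA and the processing of Okazaki fragments and 4 to nucleotide supply, while Mcm8 stood alone as a helicase of repair. The rule used gene symbols alone.

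The 4 groups were all females labelled C57Bl/6, and the study's methods give the background of the floxed and transgenic lines as C57Bl/6 J. The 5 B1/P/Rbf tumors carried Brca1fl/fl/Trp53fl/fl/TgK18GT121Tg/+, the 5 B1/P tumors Brca1fl/fl/Trp53fl/fl and the 5 P/Rbf tumors Trp53fl/fl/TgK18GT121Tg/+, and the 3 glands were wild type. Floxed Trp53 was thus shared by all tumors, and the transgene by both Rbf groups. Tumors arose after adenovirus with Cre recombinase under the CMV promoter was injected through the nipple into the ducts of adult mice. The transgene encodes T121, a fragment of SV40 large T antigen that binds pRb, p107 and p130 (together Rbf), and it is driven by keratin 18 regulatory sequence once Cre has acted. Infection and recombination can differ between cells, so a tumor need not carry every allele change in every cell. Each sample came from a separate mouse, and samples are numbered within their group in the order of their records.

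Total expected counts per sample ran from 27661173 to 37794889. Levels are given as CPM, read counts scaled to library size with TMM factors, and a gene was called when its adjusted p in the edgeR fit across all 19186 genes was 0.05 or less. The libraries fall into 2 sets, inferred from published fold changes, whose nature no source states. B1/P tumors 1 to 3 share a set with the B1/P/Rbf group, and B1/P tumors 4 and 5 share the other with the P/Rbf group and the glands. Trp53 stood at 6.75 to 24.3 CPM in the tumors and at 54.4 to 71.8 CPM in the glands. Brca1 ran from 8.13 to 45.0 CPM in both groups with floxed Brca1, from 44.9 to 116 CPM in P/Rbf tumors and from 4.61 to 5.99 CPM in glands, and counts over a whole gene do not single out the deleted exons. B1/P/Rbf tumor 3 had the highest Brca1 level of the floxed tumors (45.0 CPM), and its loss of Brca1 is recorded as partial. Without it 24 members were called higher than in B1/P tumors, beside 5.93% of all genes. The summed level of 6 luminal keratin, claudin and Epcam markers was 2472 to 5631 CPM in B1/P/Rbf, 530 to 2869 in B1/P and 5504 to 11310 in P/Rbf tumors, whereas 6 basal markers summed to 52.4 to 335, 359 to 2178 and 75.9 to 1453 CPM. Of these, 1 luminal marker was called higher in B1/P/Rbf and 3 in P/Rbf against B1/P tumors, and 1 basal marker was called lower in each. The 6 fibroblast markers summed to 800.0 to 4638 CPM in B1/P/Rbf, 2446 to 12643 in B1/P and 1211 to 3934 in P/Rbf tumors, with 0 called in the first comparison and 2 lower in the second (median log2 fold changes of -1.45 and -1.04). The 6 macrophage markers summed to 163 to 584, 275 to 1202 and 197 to 443 CPM, with 0 called and 1 lower (medians -0.56 and -1.03, the second with 5 at an unadjusted p under 0.05). Of 5 skeletal muscle markers 3 and 4 were called lower, with sums of 581 CPM in B1/P tumor 5 and at most 22.5 in the other tumors, and Ckm was at 0 in 6 of the 15 tumors and Myh4 in 4. Of 5 adipocyte markers 1 was called higher in B1/P/Rbf and 1 lower in P/Rbf, and of 7 lymphocyte and 5 endothelial markers 0 in either. Without B1/P tumor 5, 23 members were called higher in each of these comparisons, beside 6.29% and 7.42% of all genes. The median skeletal muscle sum was 14.9 CPM in B1/P/Rbf, 6.2 in B1/P and 2.87 in P/Rbf tumors. Some markers of several cell types were called between these tumor groups, and the part of all these markers in the results was not tested. In whole tissue, fewer cells of a type and less RNA per cell cannot be told apart.

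Replication begins when the origin recognition complex, with Cdc6 and Cdt1, loads inactive MCM2-7 rings onto DNA, a step called licensing that geminin limits by holding Cdt1. The Dbf4-dependent kinase Cdc7 and other factors then recruit Cdc45 and GINS to form the active helicase, and polymerase alpha with primase, polymerase delta and polymerase epsilon copy the strands. Many of these genes are classic targets of E2F factors, which pRb, p107 and p130 restrain, and their transcripts are abundant in dividing epithelium and scarce in resting gland.

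Promoter sequences were read for 41 of the 49 members, from the RefSeq table of GRCm38.p6, to show which carry a sequence that E2F factors are known to bind. Gmnn, Mcm4, Gins1, Gins2, Gins4, Prim2, Pole and Rfc2 had no entry. The motifs searched on both strands, from 250 bases before to 50 after the start, were TTTCCCGC, TTTCGCGC, TTTGCCGC and TTTGGCGC, whose matches on opposite strands can overlap. At least 1 stood in 16 of 41 members (39.0%), against 704 of all 27025 symbols in the table (2.60%). Among members of the MCM2-7 helicase 4 of 5 had a match, of the polymerases and primase 4 of 7, of the loading genes 2 of 2, of origin recognition 2 of 6, of firing 1 of 5, of clamp and loader 1 of 5, of RPA and the Okazaki fragment genes 1 of 6 and of nucleotide supply 0 of 4, and Mcm8 had one too. The 180 bases before the start are printed for 3 members with a match that rose in both groups with T121 (Orc1, Mcm5 and Mcm6), 2 with a match that rose in neither (Orc3 and Pola1) and 2 without a match that rose in both (Rrm2 and Tyms). They were chosen after matches and expression were known, and each runs 5′ to 3′ along the gene with the E2F octamers in capitals.
Orc1, chr4:108579274-108579453, plus strand: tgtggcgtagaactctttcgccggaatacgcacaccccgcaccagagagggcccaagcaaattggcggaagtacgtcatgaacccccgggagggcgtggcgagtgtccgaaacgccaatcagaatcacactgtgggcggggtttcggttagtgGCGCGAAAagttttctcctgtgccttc
Mcm5, chr8:75109329-75109508, plus strand: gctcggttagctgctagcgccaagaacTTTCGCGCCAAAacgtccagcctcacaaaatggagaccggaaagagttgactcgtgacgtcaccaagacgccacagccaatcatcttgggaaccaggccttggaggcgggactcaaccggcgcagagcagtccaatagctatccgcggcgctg
Mcm6, chr1:128359706-128359885, minus strand: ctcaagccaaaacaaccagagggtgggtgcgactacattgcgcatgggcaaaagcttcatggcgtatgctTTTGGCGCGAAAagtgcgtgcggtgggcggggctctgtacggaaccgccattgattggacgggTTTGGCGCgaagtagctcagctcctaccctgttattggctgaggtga
Orc3, chr4:34614943-34615122, minus strand: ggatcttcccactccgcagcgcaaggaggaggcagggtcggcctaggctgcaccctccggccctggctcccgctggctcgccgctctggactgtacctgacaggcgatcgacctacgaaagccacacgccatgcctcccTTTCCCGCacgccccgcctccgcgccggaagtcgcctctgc
Pola1, chrX:93632156-93632335, minus strand: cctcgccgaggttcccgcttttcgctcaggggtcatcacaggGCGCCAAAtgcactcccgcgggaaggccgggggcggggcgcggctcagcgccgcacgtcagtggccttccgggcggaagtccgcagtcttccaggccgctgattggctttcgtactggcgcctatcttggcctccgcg
Rrm2, chr12:24708074-24708253, plus strand: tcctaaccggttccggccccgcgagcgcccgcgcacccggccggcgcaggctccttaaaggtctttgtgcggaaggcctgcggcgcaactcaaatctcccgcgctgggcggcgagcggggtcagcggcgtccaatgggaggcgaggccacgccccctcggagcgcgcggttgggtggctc
Tyms, chr5:30073626-30073805, minus strand: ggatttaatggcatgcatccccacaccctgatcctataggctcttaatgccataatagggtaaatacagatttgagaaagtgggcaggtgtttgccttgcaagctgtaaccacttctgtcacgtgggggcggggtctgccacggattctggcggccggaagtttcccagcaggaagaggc
In Mcm5 and Mcm6 overlapping octamers on opposite strands run together. A match was present in 10 of 21 members called higher in B1/P/Rbf against B1/P tumors (47.6%) and in 6 of 20 of the others (30.0%), and these shares are a description of letters in a window. CCAAT, on either strand, stood in 61.0% of members and 41.1% of all symbols, and TTTGAA, an element of promoters of mitotic genes, in 17.1% and 20.2%.

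Many replication genes were higher in both tumor groups with the T121 transgene than in B1/P tumors. In B1/P/Rbf against B1/P tumors 26 of 49 members rose and 0 fell, whereas 7.36% of all genes tested were called higher and 9.29% lower. The median log2 fold change was 0.87 over the members and -0.06 over all genes. In P/Rbf against B1/P tumors 28 members rose and 0 fell, beside 8.43% and 10.8% of all genes, with medians of 0.80 and -0.05. All 5 tumors of the first group lay above all 5 B1/P tumors for 21 members in B1/P/Rbf (5.00% of all genes) and for 15 in P/Rbf (3.74%). With B1/P/Rbf set against P/Rbf tumors edgeR called 0 members in either direction, beside 0.219% of all genes higher and 0.0625% lower. Here 4 members had an unadjusted p under 0.05, limma-voom called 0, and DESeq2 called 1, Dbf4, lower (2.26% of all genes). Both comparisons against B1/P share the same 5 B1/P tumors, so their values are set side by side and not counted as separate support. For fallen members, 0 in the first and 1 in the second (Orc3) had an unadjusted p under 0.05, and DESeq2 and limma-voom each called 0.

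The counts changed unequally when the 2 library sets were taken into account. Only the B1/P group lies in both sets. A library-set term therefore compares B1/P/Rbf with B1/P tumors 1 to 3 and P/Rbf with B1/P tumors 4 and 5. B1/P tumor 4 had the highest level of its group for 32 of the 49 members. Effects of set, of this tumor and of the smaller number of tumors cannot be told apart in these counts. With a library-set term beside the genotype, 28 members were called higher in B1/P/Rbf against B1/P tumors (5.52% of all genes), and 24 of the 26 first called were among them, without Gmnn and Rrm2 and with Mcm3, Mcm7, Gins3 and Rpa2 added. In P/Rbf against B1/P tumors the same term left 8 higher (Orc1, Mcm4, Mcm6, Prim1, Pole, Pcna, Rpa1 and Tyms) and called 1 lower (Orc2), beside 3.22% and 7.24% of all genes. The other 20 of the 28 first called there lost their call with the term. Calls named below are from the fit of groups only unless stated. Within the first set 20 members rose in B1/P/Rbf against the 3 B1/P tumors there (3.36% of all genes). Within the second 7 rose and 1 fell in P/Rbf against the 2 B1/P tumors there (3.87% and 7.82%). The 2 groups with T121 lie wholly in different sets, so between them genotype and set are separated only through the 5 B1/P tumors, which lie in both.

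**Figure D1:**
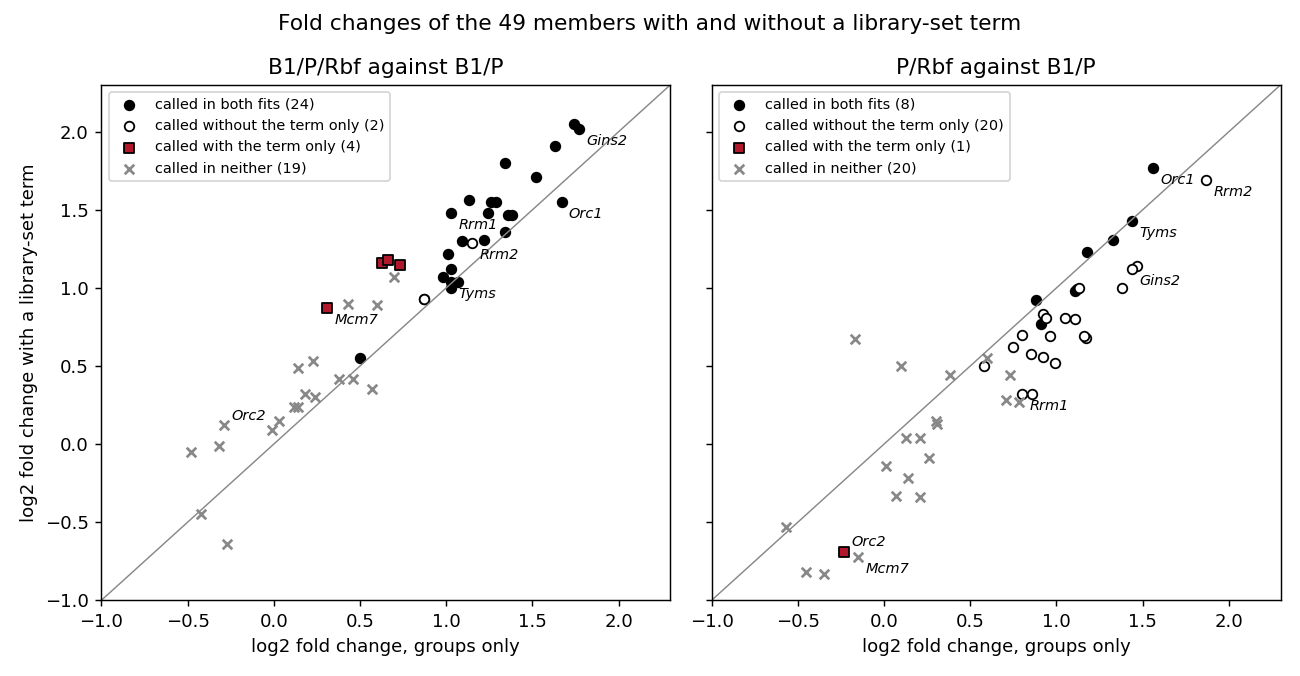
Each point is 1 of the 49 members, with its log2 fold change from the fit of groups only on the horizontal axis, its log2 fold change from the fit with a library-set term on the vertical axis and the line of equal values. In B1/P/Rbf against B1/P tumors 24 members were called in both fits, and in P/Rbf against B1/P tumors 8 were.

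By role, the level of a group of genes in a sample was summarized as the median over its members of log2 CPM relative to the mean of the 15 tumors. For the MCM2-7 helicase this level lay between 0.36 and 0.62 in B1/P/Rbf, between -0.21 and 0.26 in P/Rbf and between -1.02 and 0.15 in B1/P tumors. Every B1/P/Rbf tumor was thus above every other tumor, and P/Rbf and B1/P tumors overlapped through B1/P tumor 4. The polymerases and primase ran from 0.17 to 0.57 in B1/P/Rbf, from -0.24 to 0.54 in P/Rbf and from -0.92 to -0.32 in B1/P tumors. Nucleotide supply ran from 0.03 to 0.48, from -0.10 to 0.92 and from -1.15 to -0.24, with P/Rbf tumors 2 and 4 the highest. The origin recognition complex spanned the narrowest range, with glands at -0.64 to -0.41 and B1/P tumors at -0.51 to 0.00.

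**Figure D2:**
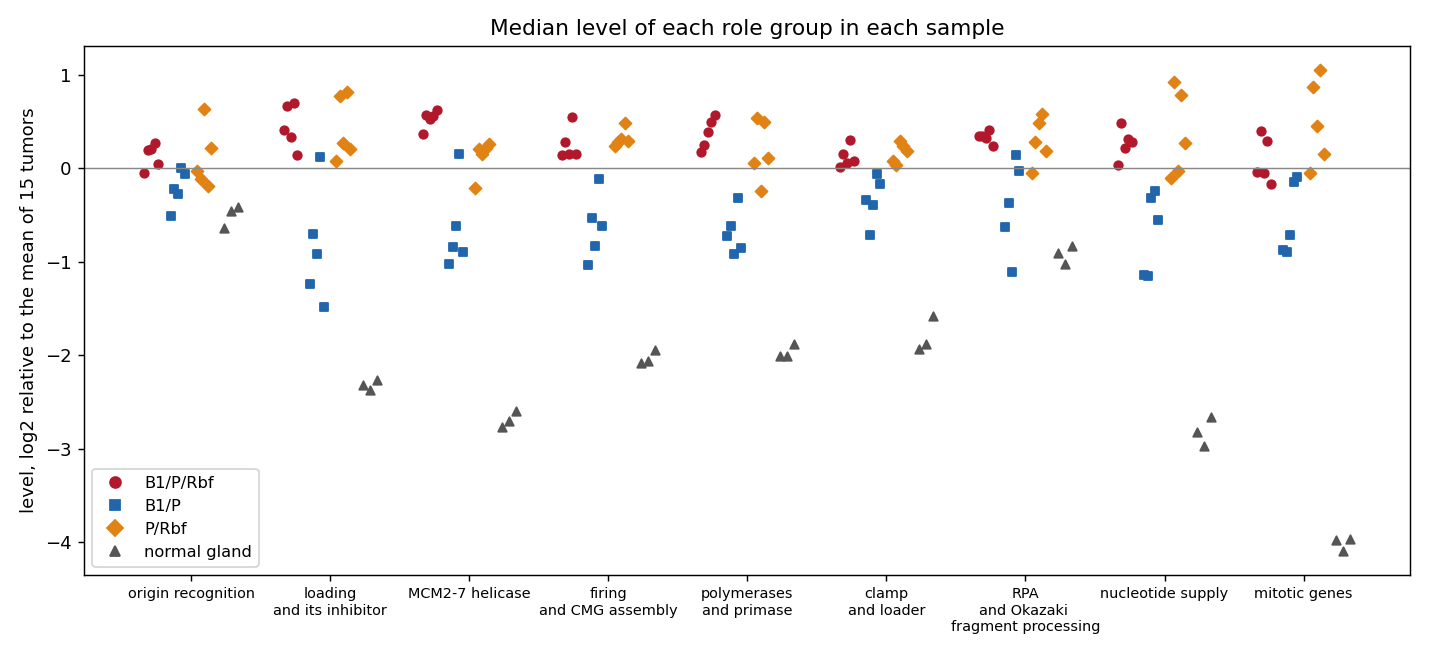
Median level of each role group in each sample, as log2 relative to the mean of the 15 tumors, with 1 point per sample, colored by group. All 3 glands lie below all tumors except for origin recognition (glands -0.64 to -0.41) and for RPA and Okazaki fragments (glands -1.02 to -0.83), where B1/P tumors reach -0.51 and -1.11.

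Licensing, polymerase and nucleotide supply genes each held members that rose against B1/P tumors. Of the 15 licensing genes (origin recognition, loading and MCM2-7) 8 rose in B1/P/Rbf (median log2 fold change 0.87), of 9 polymerase and primase genes 5 rose (median 0.98), and of 4 nucleotide supply genes 3 rose (median 1.03). In P/Rbf tumors the counts were 7, 5 and 3 and the medians 0.73, 0.85 and 1.12. Of these P/Rbf calls, the library-set term left Orc1, Mcm4 and Mcm6 in licensing, Prim1 and Pole in polymerases and Tyms in nucleotide supply. With B1/P/Rbf set against P/Rbf the medians were 0.16, 0.09 and -0.31, and 0 members of any of the 3 passed the edgeR test. Differences between functions were not tested. Where a pair of changes is given for a gene in the following, the first is of B1/P/Rbf and the second of P/Rbf, each as a log2 fold change against B1/P tumors.

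Of the origin recognition complex, which marks origins, only Orc1 among 6 subunits passed the test. Orc1, an ATPase subunit, stood at 25.4, 13.6, 14.6, 20.6 and 16 CPM in B1/P/Rbf tumors 1 to 5, at 4.10, 10.5, 3.90, 7.04 and 2.74 CPM in B1/P and at 11.6, 16.1, 21.8, 14.8 and 19.2 CPM in P/Rbf tumors. Every tumor with T121 was above every B1/P tumor. The log2 fold change against B1/P was 1.67 ± 0.34 (SE), adjusted p = 0.00362 in B1/P/Rbf and 1.56 ± 0.34 (SE), adjusted p = 0.00525 in P/Rbf tumors. Orc3, a subunit of the complex core, was at 24, 33.1, 31.7, 29.9 and 30.3 CPM in B1/P/Rbf, 55, 18.2, 48.7, 49.1 and 28 in B1/P and 28.6, 28.7, 23.6, 25.5 and 27.7 in P/Rbf tumors. Its groups overlapped, with B1/P tumors 2 and 5 low, and its log2 fold changes of -0.42 ± 0.24 (SE), adjusted p = 0.243, and -0.57 ± 0.24 (SE), adjusted p = 0.0995, were not called, although without B1/P tumor 2 they were called at -0.60 and -0.75. Orc4 measured 44.8, 37.3, 48.2, 51.9 and 41 CPM in B1/P/Rbf, 23.6, 49.6, 34.1, 37.6 and 51.8 in B1/P and 39.7, 37.4, 71.8, 40.2 and 55.1 in P/Rbf tumors. These ranges overlapped throughout. Its log2 fold changes were 0.18 ± 0.23 (SE), adjusted p = 0.623, and 0.31 ± 0.23 (SE), adjusted p = 0.343. Orc2, Orc5 and Orc6 were not called either, at -0.29, 0.46 and 0.70 in B1/P/Rbf and -0.23, 0.38 and 0.71 in P/Rbf tumors. With the library-set term, however, Orc2 was called lower in P/Rbf tumors. Without P/Rbf tumors 2 and 4, Orc6 was called in P/Rbf at 1.08 (adjusted p = 0.0256). Per kilobase of the longest coding transcript, Orc1 was the lowest subunit in B1/P/Rbf tumors at 5.99 ± 1.64 CPM (SD, n = 5), Orc2, Orc3, Orc4 and Orc5 lay between 11.0 and 12.9 within their spread, and Orc6 was the highest at 34.1 ± 9.16.

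All 3 genes of helicase loading rose in both comparisons. Cdc6, the ATPase that with Cdt1 brings MCM2-7 to the complex, was at 43.5, 51.6, 41.1, 53.4 and 71 CPM in B1/P/Rbf, 11.6, 20.2, 9.98, 30.5 and 11.7 in B1/P and 34.7, 67.5, 35.4, 57.7 and 37.8 in P/Rbf tumors. No B1/P tumor reached a tumor with T121, with B1/P tumor 4 the closest. Its log2 fold changes were 1.63 ± 0.31 (SE), adjusted p = 0.00255, and 1.47 ± 0.31 (SE), adjusted p = 0.00451. Cdt1, which escorts the MCM2-7 ring to origins, stood at 64.7, 74.1, 81.9, 63.9 and 46.9 CPM in B1/P/Rbf, 19.1, 25.2, 23.9, 52.1 and 15.5 in B1/P and 62.4, 43.7, 74.2, 45.3 and 67.9 in P/Rbf tumors. B1/P tumor 4 exceeded the lowest B1/P/Rbf tumor and the lowest 2 P/Rbf tumors. The changes were 1.29 ± 0.28 (SE), adjusted p = 0.0058, and 1.11 ± 0.28 (SE), adjusted p = 0.012. Gmnn, which encodes geminin, measured 30.9, 42.5, 32.7, 61.8 and 35.5 CPM in B1/P/Rbf, 21.4, 24.1, 18.5, 35.2 and 12.5 in B1/P and 34, 55.3, 39.1, 56.7 and 26.8 in P/Rbf tumors. Its groups overlapped, and the changes of 0.87 ± 0.29 (SE), adjusted p = 0.0467, and 0.92 ± 0.29 (SE), adjusted p = 0.0319, were lost when any of 8 and any of 5 single samples was left out. Neither was called with the library-set term (0.93 and 0.83, adjusted p = 0.086 and 0.196). In P/Rbf tumors Cdc6 and Cdt1 were not called with that term either.

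Of the MCM2-7 helicase, Mcm2, Mcm4, Mcm5 and Mcm6 rose in B1/P/Rbf tumors and Mcm4, Mcm5 and Mcm6 in P/Rbf tumors. Mcm4 was at 212, 264, 281, 248 and 251 CPM in B1/P/Rbf, 81.9, 96.6, 92.5, 122 and 88.3 in B1/P and 206, 207, 211, 177 and 240 in P/Rbf tumors. All B1/P values lay below both other groups, and the log2 fold changes were 1.38 ± 0.15 (SE), adjusted p = 5.78e-05, and 1.11 ± 0.14 (SE), adjusted p = 0.000235. Mcm2 was at 258, 254, 263, 252 and 290 CPM in B1/P/Rbf, 90.7, 81.6, 111, 197 and 75.6 in B1/P and 98.5, 205, 206, 234 and 181 in P/Rbf tumors. The B1/P/Rbf tumors were close together and above all others, whereas P/Rbf tumors 1 and 5 lay below B1/P tumor 4. The change was 1.24 ± 0.26 (SE), adjusted p = 0.00395 in B1/P/Rbf, and 0.73 ± 0.25 (SE), adjusted p = 0.0515 in P/Rbf tumors, where it was not called. The P/Rbf change of Mcm2 was called at 1.04 (adjusted p = 0.00467) without B1/P tumor 4, at 0.94 (adjusted p = 0.0134) without P/Rbf tumor 1 and at 0.74 (adjusted p = 0.0304) by DESeq2. With the library-set term it was not called. Mcm7 measured 263, 326, 281, 333 and 312 CPM in B1/P/Rbf, 187, 132, 178, 532 and 197 in B1/P and 212, 218, 233, 210 and 235 in P/Rbf tumors. B1/P tumor 4 held the highest value of all tumors, and the changes of 0.31 ± 0.28 (SE), adjusted p = 0.482, and -0.15 ± 0.28 (SE), adjusted p = 0.747, were not called. Mcm3 likewise stood at 427 CPM in B1/P tumor 4 and at 97.7 to 142 in the other B1/P tumors, with changes of 0.63 and 0.21. Mcm5 rose by 1.26 and 0.92 and Mcm6 by 1.36 and 0.91. Without B1/P tumor 4 the changes in B1/P/Rbf tumors were 1.23 for Mcm3 (adjusted p = 0.00087) and 0.80 for Mcm7 (adjusted p = 0.0029), and both were called. In P/Rbf tumors Mcm3 was then called too, at 0.81, and Mcm7 stood at 0.35. With the library-set term B1/P/Rbf was called for Mcm3 (1.16, adjusted p = 0.0303) and Mcm7 (0.87, adjusted p = 0.0291). That term takes B1/P tumor 4 out of the B1/P/Rbf comparison, so these calls are not separate from those made without this tumor. P/Rbf, compared under the term with B1/P tumors 4 and 5, was at -0.34 and -0.72, not called. In 16 samples the Mcm7 count was not whole, so some of its reads were shared with other genes, and the microRNAs Mir25, Mir93 and Mir106b lie within it on the same strand. Per kilobase, the 6 subunits lay between 69.5 and 102 CPM in B1/P/Rbf tumors.

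Of the 8 origin firing genes, Mcm10, Cdc45, Gins1 and Gins2 rose in both comparisons, and Gins3 and Dbf4 in P/Rbf tumors. Gins2, a GINS subunit, was at 51, 48.2, 44.9, 38.1 and 23.6 CPM in B1/P/Rbf, 8.30, 10.6, 11.5, 18.5 and 11.5 in B1/P and 45.8, 18, 35.7, 25.2 and 38.7 in P/Rbf tumors. The 5 B1/P/Rbf tumors were above every B1/P tumor, and P/Rbf tumor 2 was just below B1/P tumor 4. The changes of 1.77 ± 0.29 (SE), adjusted p = 0.00102, and 1.44 ± 0.28 (SE), adjusted p = 0.00323, made it the largest rise among the 49 members in the first comparison. Mcm10, Cdc45 and Gins1 rose by 0.87, 1.22 and 1.34 in B1/P/Rbf and by 0.80, 1.13 and 1.17 in P/Rbf tumors, the Mcm10 call in P/Rbf being lost without any of 3 single samples. Gins3, at 4.57 to 5.51 CPM in 4 B1/P tumors and 14.8 in tumor 4, was called in P/Rbf only (0.99 ± 0.33 (SE), adjusted p = 0.0431), and in B1/P/Rbf it became called at 1.20 without B1/P tumor 4 (adjusted p = 0.00596). Its P/Rbf call was lost when any of 8 single samples was left out. With the library-set term the calls of Gins3 were the other way round, at 1.15 in B1/P/Rbf (adjusted p = 0.0428) and 0.52 in P/Rbf tumors (adjusted p = 0.428). Gins4 was called in neither (0.03 and 0.30). Cdc7, the kinase, was at 36.8, 36.9, 29.2, 51.7 and 49 CPM in B1/P/Rbf, 80.5, 27.3, 83, 19.3 and 35.3 in B1/P and 41, 25.1, 44.6, 61.1 and 45.7 in P/Rbf tumors. The B1/P tumors held both the highest and the lowest values, and the changes of -0.27 ± 0.35 (SE), adjusted p = 0.642, and -0.17 ± 0.35 (SE), adjusted p = 0.762, were not called. Dbf4, its activator, was at 40.8, 49.3, 42, 57.9 and 39.6 CPM in B1/P/Rbf, 34.4, 52, 30.3, 51.2 and 40.1 in B1/P and 62.2, 73.8, 79.5, 66.3 and 68.8 in P/Rbf tumors. All P/Rbf tumors were above all other tumors, and the change against B1/P was 0.75 ± 0.18 (SE), adjusted p = 0.00876 in P/Rbf and 0.14 ± 0.18 (SE), adjusted p = 0.619 in B1/P/Rbf tumors. With the library-set term the P/Rbf change of Dbf4 was 0.62 ± 0.24 (adjusted p = 0.111).

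**Figure D3:**
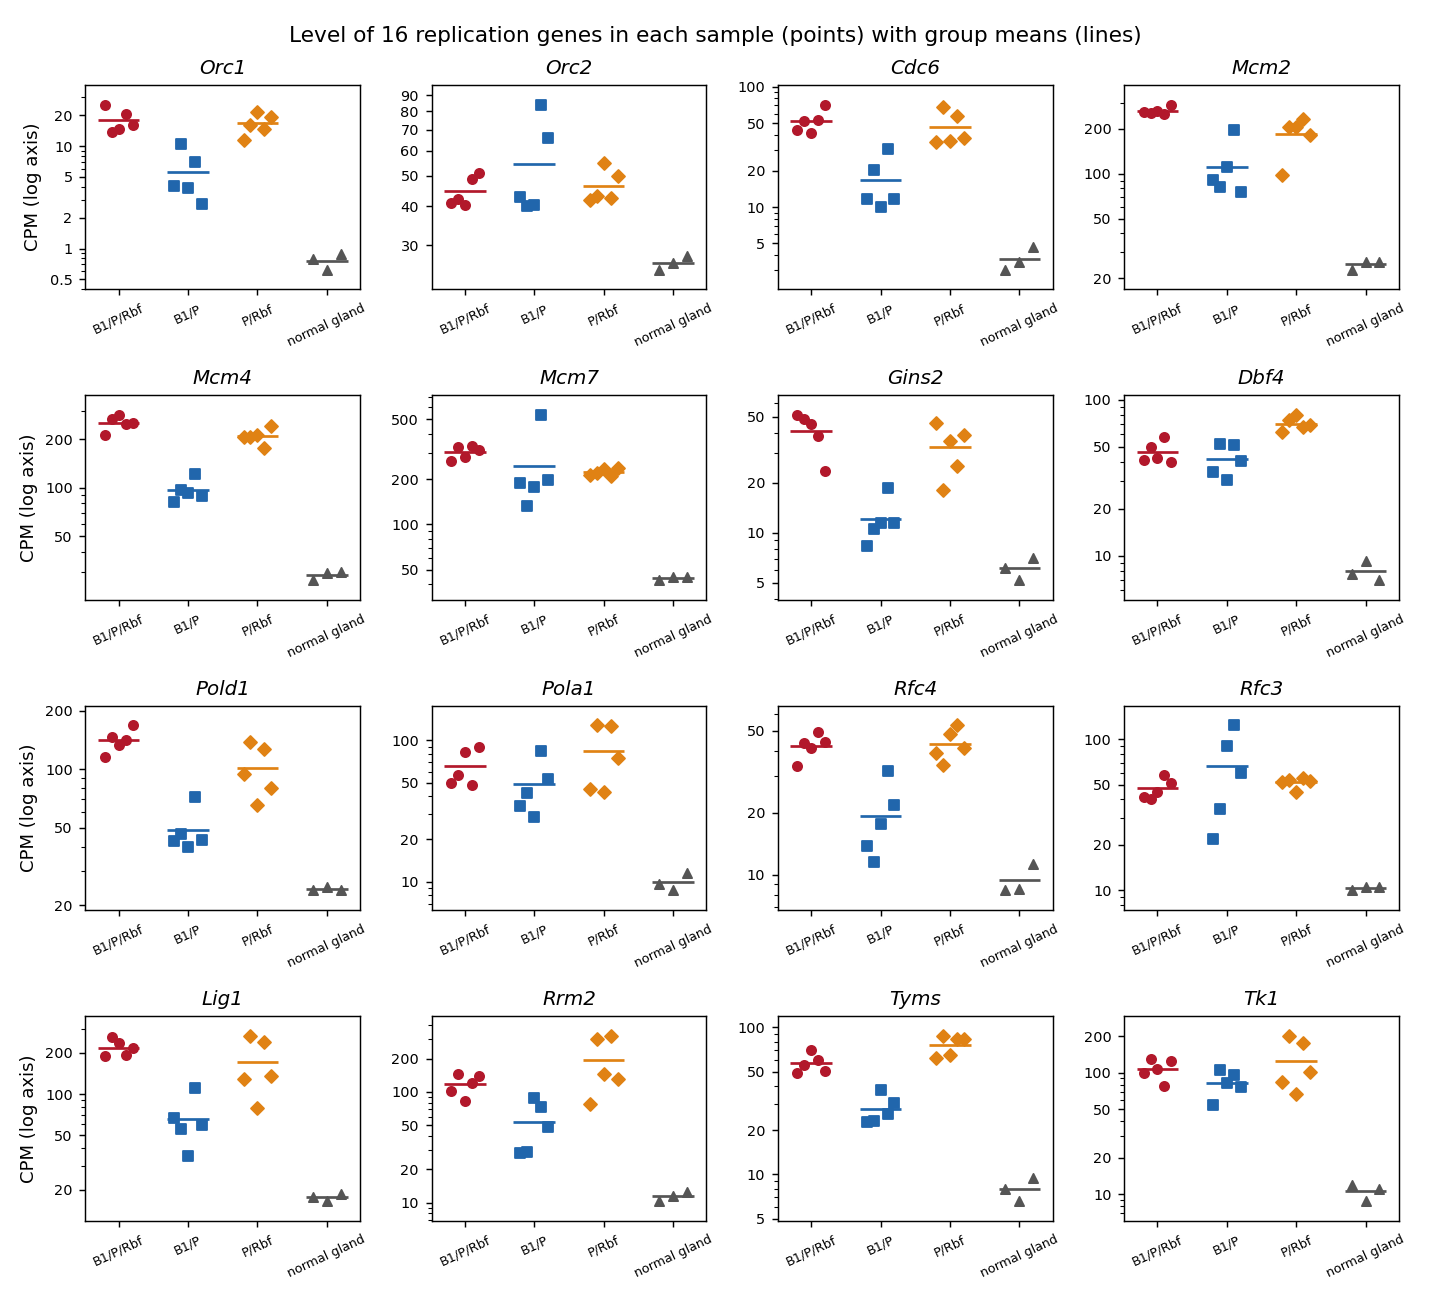
CPM on a log axis for 16 members, with 1 point per sample in each of the 4 groups and a line at each group mean. Mcm4 in B1/P tumors (81.9 to 122 CPM) is below both other tumor groups (177 to 281), and Mcm7 has 1 high B1/P tumor at 532 CPM.

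Of the 9 polymerase and primase genes, Prim1, Pold1, Pold3, Pole and Pole2 rose in both comparisons. Pold1, the catalytic subunit of polymerase delta, was at 115, 147, 133, 141 and 168 CPM in B1/P/Rbf, 42.8, 46.6, 40.0, 72.1 and 43.2 in B1/P and 95, 138, 65.3, 127 and 79.9 in P/Rbf tumors. Only P/Rbf tumor 3 lay below the highest B1/P tumor. The changes were 1.52 ± 0.22 (SE), adjusted p = 0.000464, and 1.05 ± 0.21 (SE), adjusted p = 0.00381. Prim1, the catalytic subunit of primase, was at 56.1, 54.4, 64.1, 57.8 and 110 CPM in B1/P/Rbf, 29.4, 30.7, 20.1, 28 and 27.1 in B1/P and 51, 71.2, 67.2, 98.3 and 52.8 in P/Rbf tumors. Both groups with T121 were above all B1/P tumors, with changes of 1.34 ± 0.23 (SE), adjusted p = 0.00129, and 1.33 ± 0.23 (SE), adjusted p = 0.00135. Pold2, an accessory subunit of polymerase delta, was at 61.7, 37.5, 64.9, 76.7 and 65.3 CPM in B1/P/Rbf, 51.6, 63.9, 56.9, 74.4 and 61.9 in B1/P and 70.7, 43.5, 74.9, 54.9 and 66 in P/Rbf tumors. These ranges coincided, and the changes of -0.01 ± 0.19 (SE), adjusted p = 0.976, and 0.01 ± 0.19 (SE), adjusted p = 0.99, were the smallest in size of any member. Pola1, the catalytic subunit of polymerase alpha, was at 49.5, 56.9, 83, 47.9 and 89 CPM in B1/P/Rbf, 34.5, 42, 28.5, 84.5 and 53.5 in B1/P and 45.4, 127, 43, 126 and 75.4 in P/Rbf tumors. P/Rbf tumors 2 and 4 were the highest, B1/P tumor 4 matched the higher B1/P/Rbf tumors, and the changes of 0.43 ± 0.34 (SE), adjusted p = 0.424, and 0.78 ± 0.35 (SE), adjusted p = 0.12, were not called, although without B1/P tumor 4 the second was, at 1.07. Pold3, Pole and Pole2 had changes of 1.09, 1.07 and 0.98 in B1/P/Rbf and 0.85, 0.88 and 0.94 in P/Rbf tumors, the Pold3 call in P/Rbf being lost without any of 4 single samples. The Pole2 count was not whole in any of the 18 samples, the most of any member, so reads were shared with other genes. Pola2 (0.57 and 0.10) and Prim2 (0.23 and 0.14) were not called. Subunits of 1 enzyme thus did not all pass the test together.

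For the clamp and its loader, Pcna, Rfc4 and Rfc5 rose in both comparisons and Rfc1 (0.24 and 0.13), Rfc2 and Rfc3 were not called. Pcna, the sliding clamp, ran from 206 to 377 CPM in B1/P/Rbf, from 104 to 173 in B1/P and from 223 to 370 in P/Rbf tumors, with changes of 1.03 ± 0.20 (SE), adjusted p = 0.00281, and 1.12 ± 0.20 (SE), adjusted p = 0.00192. Its count was not whole in 17 samples, so reads were shared with other genes. Rfc4, a loader subunit, was at 33.6, 43.7, 41, 49.2 and 43.9 CPM in B1/P/Rbf, 13.8, 11.5, 17.6, 31.7 and 21.8 in B1/P and 38.9, 34.1, 48.1, 53 and 41.4 in P/Rbf tumors. The tumors with T121 were all above the B1/P tumors, and the changes were 1.13 ± 0.24 (SE), adjusted p = 0.00509, and 1.16 ± 0.24 (SE), adjusted p = 0.00439. Rfc5 rose by 0.50 and 0.58. Rfc3 was at 41.5, 40.2, 44.6, 58.2 and 51.6 CPM in B1/P/Rbf, 21.7, 34.6, 90.6, 123 and 59.9 in B1/P and 52.2, 53.7, 44.9, 55.1 and 52.6 in P/Rbf tumors. The B1/P tumors spread 5.69-fold, the widest of any member in any tumor group, and enclosed both other groups, with changes of -0.48 ± 0.33 (SE), adjusted p = 0.33, and -0.35 ± 0.33 (SE), adjusted p = 0.466. Rfc2 was at 87.5, 89.4, 92.3, 99.1 and 92.4 CPM in B1/P/Rbf, 94.1, 55.6, 128, 204 and 92.6 in B1/P and 92, 77.1, 84.5, 81 and 84.5 in P/Rbf tumors. B1/P tumor 4 was again the highest, B1/P tumor 2 the lowest, and without B1/P tumor 2 the P/Rbf change was called at -0.63. With all samples the changes of Rfc2 were -0.32 ± 0.24 (SE), adjusted p = 0.389, and -0.45 ± 0.24 (SE), adjusted p = 0.187.

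Of RPA and the Okazaki fragment genes, Rpa1 and Lig1 rose in both comparisons and Rpa2 in P/Rbf tumors. Lig1, the ligase that joins Okazaki fragments, was at 188, 259, 234, 193 and 216 CPM in B1/P/Rbf, 66.7, 55.6, 35.3, 110 and 59.3 in B1/P and 129, 266, 79.2, 240 and 136 in P/Rbf tumors. Only P/Rbf tumor 3 lay among the B1/P tumors. The changes were 1.74 ± 0.31 (SE), adjusted p = 0.00183, and 1.38 ± 0.31 (SE), adjusted p = 0.00651. Rpa1, the large subunit of the protein that coats single-stranded DNA, ran from 142 to 167 CPM in B1/P/Rbf, from 46.8 to 103 in B1/P and from 137 to 187 in P/Rbf tumors, with changes of 1.03 ± 0.18 (SE), adjusted p = 0.00135, and 1.18 ± 0.18 (SE), adjusted p = 0.000664. Rpa2 was at 53.4, 28, 53, 54.4 and 80.6 CPM in B1/P/Rbf, 31.9, 20.5, 19.1, 55.3 and 44.4 in B1/P and 52.4, 59.4, 68.9, 69.1 and 60.7 in P/Rbf tumors. All ranges overlapped, and the changes were 0.66 ± 0.29 (SE), adjusted p = 0.129, and 0.86 ± 0.29 (SE), adjusted p = 0.0456, the P/Rbf call being lost when any of 7 single samples was left out, and B1/P/Rbf being called at 0.90 without B1/P tumor 4. Rpa2 was called under the library-set term in B1/P/Rbf (1.18, adjusted p = 0.0122) and not in P/Rbf tumors (0.32, adjusted p = 0.544). Rpa3, the small subunit, was at 17.9, 20.3, 24.2, 17.9 and 22.3 CPM in B1/P/Rbf, 15.4, 13.9, 14.5, 29.2 and 20.1 in B1/P and 11.9, 21.5, 26.6, 18.2 and 19.5 in P/Rbf tumors, with changes of 0.14 ± 0.25 (SE), adjusted p = 0.737, and 0.07 ± 0.25 (SE), adjusted p = 0.867. Fen1, the flap endonuclease, was at 81.3, 79.6, 30.6, 88.2 and 40.0 CPM in B1/P/Rbf, 47.8, 49.7, 64.6, 72.5 and 60.5 in B1/P and 44.6, 85.8, 51.5, 109 and 49.6 in P/Rbf tumors. B1/P/Rbf tumors 3 and 5 were below every B1/P tumor and the other 3 above every one, and the changes of 0.12 ± 0.30 (SE), adjusted p = 0.83, and 0.21 ± 0.30 (SE), adjusted p = 0.658, were not called. Fen1 overlaps Tmem258 on the opposite strand, and Rnaseh2a, which was not called either (0.60 and 0.26), overlaps Prdx2 likewise. Among called members, Cdc45 overlaps Ufd1, Gins2 overlaps Gse1, Rfc4 overlaps Eif4a2, Rfc5 overlaps Wsb2 and Lig1 overlaps Zswim9 on the opposite strand. Orc1 likewise overlaps Gm12743, Pold1 overlaps Gm44833, Pole overlaps Gm15792 and Pole2 overlaps Gm47545, and 19 of the 49 members overlap some gene in this way.

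Of the nucleotide supply genes, Rrm1, Rrm2 and Tyms rose in both comparisons and Tk1 in neither. Rrm2, the small subunit of ribonucleotide reductase, was at 101, 146, 83.2, 121 and 139 CPM in B1/P/Rbf, 27.8, 28.5, 88.8, 73 and 48.1 in B1/P and 77.2, 299, 145, 321 and 132 in P/Rbf tumors. P/Rbf tumors 2 and 4 were above 2 times any B1/P/Rbf tumor, and P/Rbf tumor 1 and B1/P/Rbf tumor 3 lay below the highest B1/P tumor. The changes were 1.15 ± 0.38 (SE), adjusted p = 0.0469, and 1.87 ± 0.39 (SE), adjusted p = 0.00406, the largest rise among members in the second comparison. Without P/Rbf tumors 2 and 4 the second was 1.15 ± 0.35 (adjusted p = 0.0338). The first was lost when any of 7 single samples was left out. Neither Rrm2 change was called with the library-set term (1.29 and 1.69, adjusted p = 0.078 and 0.0639). Rrm1, the large subunit, was at 229, 298, 247, 355 and 227 CPM in B1/P/Rbf, 86, 83.1, 123, 224 and 146 in B1/P and 201, 312, 142, 286 and 211 in P/Rbf tumors. All B1/P/Rbf tumors were above all B1/P tumors, with a change of 1.03 ± 0.27 (SE), adjusted p = 0.0159, whereas P/Rbf tumors 1, 3 and 5 overlapped B1/P tumor 4. The P/Rbf change of Rrm1 was 0.80 ± 0.27 (SE), adjusted p = 0.0472, and it was lost when any of 7 single samples was left out. Tyms, the thymidylate synthase, ran from 49.2 to 69.5 CPM in B1/P/Rbf, from 22.6 to 37.5 in B1/P and from 61.8 to 87.4 in P/Rbf tumors, with changes of 1.03 ± 0.18 (SE), adjusted p = 0.0017, and 1.44 ± 0.18 (SE), adjusted p = 0.000211. Tk1, the thymidine kinase of the salvage pathway, was at 99.2, 130, 107, 78.5 and 126 CPM in B1/P/Rbf, 54.7, 105, 82.7, 95.2 and 76 in B1/P and 84, 201, 66.3, 174 and 101 in P/Rbf tumors. P/Rbf tumors 2 and 4 were again the highest, and the changes of 0.38 ± 0.28 (SE), adjusted p = 0.362, and 0.60 ± 0.28 (SE), adjusted p = 0.134, were not called. Per kilobase, Rrm1 and Rrm2 stood at 67.8 ± 13.7 and 53.9 ± 11.9 CPM in B1/P/Rbf tumors (SD, n = 5) and did not differ beyond their spread.

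Mcm8, which with Mcm9 forms a helicase of homologous recombination, was at 20.8, 23.2, 22.1, 33.8 and 15.3 CPM in B1/P/Rbf, 15.3, 6.22, 8.24, 17.4 and 10.2 in B1/P and 13.9, 27.3, 22.7, 29.1 and 18.6 in P/Rbf tumors. B1/P tumors 1 and 4 overlapped the groups with T121. The changes of 1.01 ± 0.30 (SE), adjusted p = 0.0311, and 0.96 ± 0.30 (SE), adjusted p = 0.035, were each lost when any of 6 single samples was left out.

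**Figure D4:**
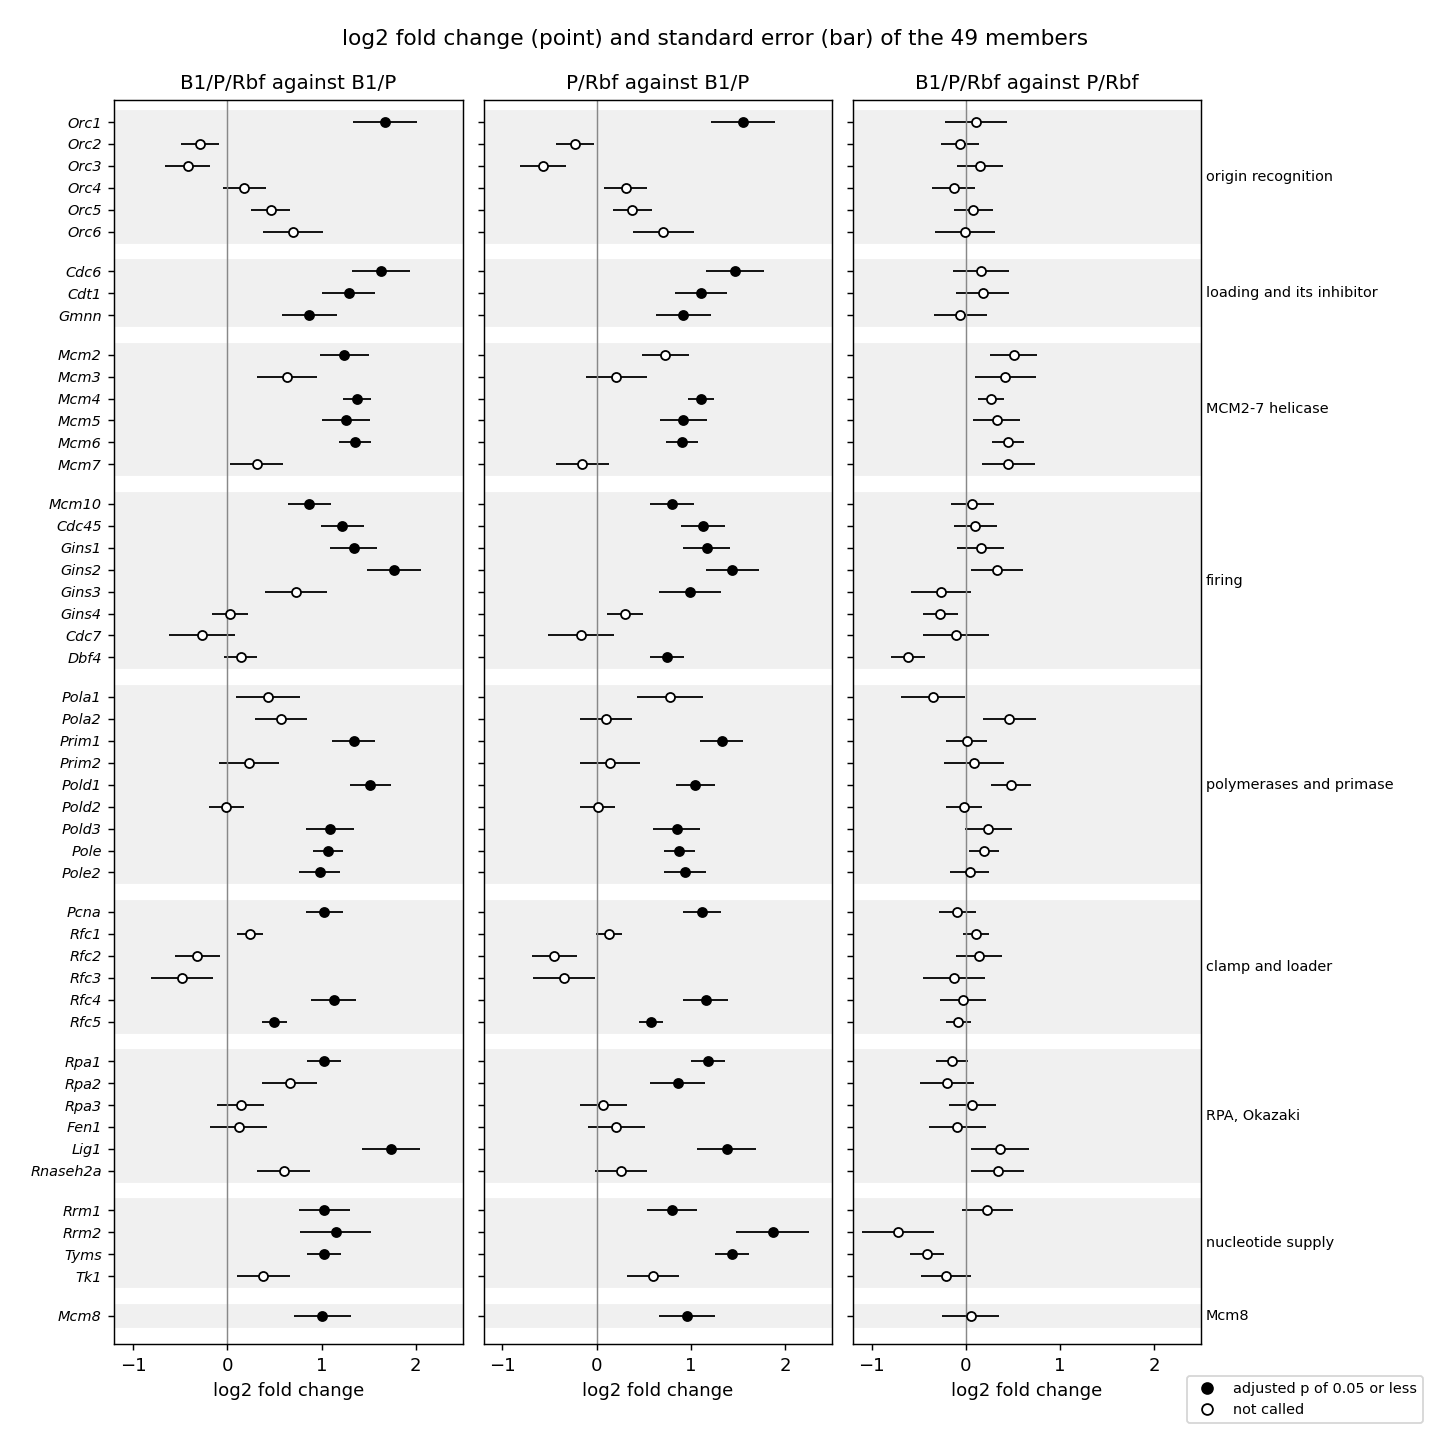
log2 fold change (point) with its standard error (bar) for each of the 49 members by role, in 3 comparisons of tumor groups, with filled points for an adjusted p of 0.05 or less. Filled points number 26 in the first panel, 28 in the second and 0 in the third, where values run from -0.72 to 0.51.

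Against P/Rbf tumors, which lack floxed Brca1, the members' B1/P/Rbf log2 fold changes had a median of 0.07, beside -0.01 over all genes. All 6 MCM2-7 subunits were positive, from 0.27 for Mcm4 to 0.51 for Mcm2, and in Mcm2, Mcm3, Mcm6 and Mcm7 every B1/P/Rbf tumor was above every P/Rbf tumor. Such separation with B1/P/Rbf higher was seen in 1.71% of all genes. None passed the edgeR test, with 0.51 ± 0.25 (SE), adjusted p = 0.337 for Mcm2 and 0.45 ± 0.17 (SE), adjusted p = 0.188 for Mcm6. In the other direction only Dbf4 separated the groups (1.31% of all genes), at -0.61 ± 0.18 (SE), adjusted p = 0.12, and DESeq2 alone called it (adjusted p = 0.0181). Rrm2 had the most negative value at -0.72 ± 0.38 (SE), adjusted p = 0.363, which became 0.00 without P/Rbf tumors 2 and 4, and Tyms was at -0.41 ± 0.18 (SE), adjusted p = 0.27. Pold1 was at 0.48 ± 0.21 (SE), adjusted p = 0.273. All these tumors differ in library set as well as in genotype. When the library sets were a term, estimated from the B1/P tumors of both sets, the MCM2-7 subunits ran from 0.49 for Mcm4 to 1.59 for Mcm7, and Mcm7 had the lowest adjusted p of the 49 members (0.0993). Rrm2 was then at -0.40 ± 0.67 (SE) and Dbf4 at -0.38 ± 0.31 (SE). The set estimate includes B1/P tumor 4, whose Mcm7 level of 532 CPM stood beside a group median of 187 CPM. The part of this tumor in the Mcm7 value was not tested. Over all alternatives 28 members changed sign in this comparison, none of these values being called. In the same comparison all 5 adipocyte markers were positive (median 3.51, with 5 at an unadjusted p under 0.05), as were all 6 macrophage (median 0.33) and all 5 endothelial markers (median 0.38), whereas all 6 luminal markers were negative (median -0.57). The part of these markers in the result was not tested.

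Against normal gland most members were higher in every tumor group. In B1/P/Rbf tumors 44 rose and 1 fell, in B1/P tumors 38 rose and 0 fell, and in P/Rbf tumors 45 rose and 1 fell, while of all genes 17.1% and 20.0%, 16.8% and 16.9%, and 17.4% and 20.3% were called higher and lower. With the library-set term 41 of the 45, 37 of the 38 and 46 of the 46 member calls were kept. Among B1/P tumors 0 members were lower at an unadjusted p under 0.05, and DESeq2 and limma-voom called 0. Median log2 fold changes over the members were 2.53, 1.66 and 2.31, beside 0.05, 0.12 and 0.05 over all genes. The glands hold other cells, with summed levels of 9182 to 13247 CPM for 5 adipocyte markers, 21778 to 42844 for 5 skeletal muscle markers and 370 to 514 for 7 lymphocyte markers, where tumors reached at most 172, 581 and 31.4. The part of these cells in the difference was not tested, and the B1/P/Rbf tumors also lie in the other library set.

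Orc1, Pole and Mcm10 had the largest rises over gland in B1/P/Rbf tumors, Mcm10, Pole and Tk1 in B1/P and Orc1, Rrm2 and Pole in P/Rbf tumors. Orc1 was at 0.782, 0.622 and 0.88 CPM in glands 1 to 3, and its log2 fold change was 4.56 ± 0.49 (SE), adjusted p = 2.29e-06 in B1/P/Rbf, 2.89 ± 0.45 (SE), adjusted p = 0.000117 in B1/P and 4.45 ± 0.48 (SE), adjusted p = 2.73e-06 in P/Rbf tumors. Pole, the catalytic subunit of polymerase epsilon, was at 8.64, 7.79 and 7.52 CPM in glands, with changes of 4.04 ± 0.22 (SE), adjusted p = 1.33e-08, then 2.97 ± 0.21 (SE), adjusted p = 9.22e-08, and 3.84 ± 0.22 (SE), adjusted p = 2.33e-08. All 6 MCM2-7 genes rose in each group, with medians of 3.26, 2.26 and 2.87, and all 4 nucleotide supply genes, with medians of 3.09, 2.00 and 3.40. Mcm10 was at 3.56, 2.91 and 4.20 CPM in glands, with changes of 3.91 ± 0.32 (SE) in B1/P/Rbf and 3.04 ± 0.31 (SE) in B1/P tumors. Rrm2 was at 10.4, 11.6 and 12.6 CPM and Mcm2 at 22.9, 25.8 and 25.9 CPM in glands. Of the origin recognition genes, Orc4 and Orc5 were called in none of the tumor groups. Orc3 was at 48.5, 47.4 and 50.4 CPM in glands, above every tumor of both groups with T121, with changes of -0.71 ± 0.27 (SE), adjusted p = 0.0469 in B1/P/Rbf and -0.86 ± 0.27 (SE), adjusted p = 0.0181 in P/Rbf tumors. The first of these was lost without TMM, in the limma-voom fit, without a filter, when the library sets were a term and when any 1 of these 8 samples was left out, and the second without TMM or when any 1 gland was left out. Rnaseh2a was called by edgeR in none of the 3 groups, although in B1/P/Rbf tumors it was called without TMM (1.07, adjusted p = 0.0182) and without B1/P/Rbf tumor 5 (0.89, adjusted p = 0.0328), and Rpa1, which rose in both groups with T121, was at -0.20 ± 0.20 (SE), adjusted p = 0.46 in B1/P tumors.

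Levels also differed among the tumors of a group. B1/P tumor 4 had the highest level of its group for 32 of the 49 members and the highest of all 15 tumors for 7, namely Orc2, Mcm3, Mcm7, Prim2, Rfc2, Rfc3 and Rpa3. The lowest value of all 15 tumors was in a B1/P tumor for 46 members, in tumor 4 for 1 of them. B1/P/Rbf tumors 4 and 5 and P/Rbf tumor 2 were likewise each the highest of all tumors for 7 members, P/Rbf tumor 3 for 6 and P/Rbf tumor 4 for 5. The mitotic gene levels of P/Rbf tumors 2 and 4, at 0.87 and 1.05 on the same relative log2 scale, exceeded those of every other tumor, the next being 0.45 in P/Rbf tumor 3. The ratio of highest to lowest tumor within a group had a median over members of 1.53 in B1/P/Rbf, 2.23 in B1/P and 1.70 in P/Rbf tumors.

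Of 33 other replication genes, most called ones were higher in the groups with T121. In B1/P/Rbf against B1/P tumors 14 rose and 2 fell, beside 7.36% and 9.29% of all genes, with a median log2 fold change of 0.75. Wdhd1, which couples polymerase alpha to the helicase, had the largest rise (1.76 ± 0.24, adjusted p = 0.000363), followed by Atad5, which unloads Pcna (1.40 ± 0.20, adjusted p = 0.000469). Pold4, a small polymerase delta subunit, fell by 0.76 on the log2 scale (adjusted p = 0.0403), and Lrwd1, a partner of the origin recognition complex, fell by 0.70 (adjusted p = 0.0479). The Lrwd1 change was not called with the library-set term (-0.53, adjusted p = 0.183), by limma-voom (adjusted p = 0.0956) or without TMM (adjusted p = 0.0609). The Pold4 call was lost without any of 7 single samples and the Lrwd1 call without any of 8, with adjusted p of up to 0.0941 and 0.136. Both calls were also lost without a filter (adjusted p = 0.0921 and 0.0932), with only the groups compared (0.0799 and 0.132) and within library set 1 (0.0802 and 0.29). In P/Rbf against B1/P tumors 16 rose and 1, Lrwd1, fell by 0.94 (adjusted p = 0.0108), beside 8.43% and 10.8% of all genes, with a median of 0.84. Pold4 was at -0.62 there (adjusted p = 0.0763), and it was called lower by DESeq2 (adjusted p = 0.0373), without TMM (adjusted p = 0.0466), without P/Rbf tumor 2 (adjusted p = 0.0474) and without P/Rbf tumors 2 and 4 (adjusted p = 0.0274). The Lrwd1 call was lost without P/Rbf tumors 2 and 4 (adjusted p = 0.0561) and with only the groups compared in the fit (adjusted p = 0.0681). The histone chaperone gene Asf1b rose most (3.77 ± 0.75, adjusted p = 0.00329), at 35.5, 1079, 64.3, 660.0 and 68.2 CPM in P/Rbf and 15.5 to 35.2 in B1/P tumors. P/Rbf tumors 2 and 4 stood far above the other 3, and without both the change was 1.00 ± 0.27 (adjusted p = 0.0194), while without tumor 2 alone it was 2.89 (adjusted p = 0.00711). With the library-set term it was 3.53 (adjusted p = 0.0573). Wdhd1 followed (1.84 ± 0.24, adjusted p = 0.000243). Of 14 mitotic genes, a second readout of cell division, 3 rose in B1/P/Rbf (7.36% of all genes) and 8 in P/Rbf (8.43%) against B1/P tumors. Of these mitotic genes 0 fell (9.29% and 10.8% of all genes), and their medians were 0.63 and 0.98. Their median with B1/P/Rbf set against P/Rbf was -0.46, and edgeR, DESeq2 and limma-voom called 0 of them, with 4 at an unadjusted p under 0.05.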

How the data were processed

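RNA was measured by stranded, paired-end mRNA sequencing in 18 samples. The deposited file holds expected counts per gene, which the authors made with RSEM 1.3.0 after trimming with cutadapt 1.18 (versions from the submitters' processing notes, which also name FastQC 0.11.5, Picard 1.119 and DESeq2 1.28.1). A human build is named beside a mouse build in the sources, while all identifiers are of mouse GRCm38 annotation. Whether strand was used in counting is not given in the sources used here, so reads of overlapping genes may be shared. The file lists 55450 genes, of which 22562 had no counts, and 5.61% of values were not whole and were rounded. Total counts of 27661173 to 37794889 per sample (median 33802254) bound counting error only. The main test was edgeR 4.0.16 quasi-likelihood (R 4.3.3) with TMM scaling, a filter keeping 19186 genes (minimum count 10), all samples and genotype as the only term, with Benjamini-Hochberg adjustment over all genes and a call at 0.05. The SE is the log2 fold change divided by the square root of F. Alternatives were DESeq2 1.42.0, limma-voom with quantile normalization (limma 3.58.1), no TMM, no filter (32772 genes), a filter of log2 CPM of at least 6 in 6 samples (4549 genes), only the groups compared, a library-set term, fits within a set, and leaving out each sample. Leaving out P/Rbf tumors 2 and 4 together was added after seeing the data. The library sets were taken over from earlier work on these data, where they were inferred from the study's fitted fold changes, and those fold changes were not used otherwise. The fit was tested on simulated data with changes placed in the B1/P/Rbf group only. Those data held no library-set effect and no outlying tumor, so the test does not bear on either. Levels per kilobase used the longest coding transcript, and genes were compared in level only on that scale.

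Members and gene lists were chosen with earlier results of these data known. CPM in every sample is given for the 2 largest rises and 2 largest falls among called members in each comparison of tumor groups, for the largest and smallest log2 fold change of each role and for Mcm2 and Rrm2, and other replication genes are named for the 2 largest rises and falls among those called. p-values measure the spread between separate mice. Promoters came from RefSeq (GRCm38.p6). No genome was used.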

Additional observations from a re-analysis of the deposited data

Results flagged for a closer look

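In 10 of 147 combinations of a member and a tumor group, 1 of the 5 tumors lay far from the others by Dixon's test, which flags about 1 in 20 by chance. B1/P tumor 4 was high for Mcm3 (427 CPM), Mcm7 (532 CPM), Gins3 (14.8 CPM) and Pold1 (72.1 CPM). B1/P tumor 3 was low for Pole2 (6.31 CPM). B1/P/Rbf tumor 5 was high for Prim1 (110 CPM), and B1/P/Rbf tumor 4 for Rpa1 (167 CPM). P/Rbf tumor 1 was low for Pole (89.4 CPM) and Pcna (223 CPM), and P/Rbf tumor 3 for Rfc3 (44.9 CPM).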

How the results depend on the processing

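Of the 26 members called in B1/P/Rbf against B1/P, 26 were called by DESeq2, limma-voom and edgeR without TMM, and of the 28 in P/Rbf against B1/P 23 were. On leaving out single samples the number called higher ran from 23 to 30 and from 21 to 31 (5.61% to 7.73% and 6.38% to 9.14% of all genes), with 23 of the 26 and 21 of the 28 called each time, and the number called lower from 0 to 1 and from 0 to 2. The most were called higher without B1/P tumor 4. With only the groups compared in the fit 23 and 19 were called higher, beside 5.62% and 3.79% of all genes. With the library-set term 8 members were higher and 1 lower in P/Rbf against B1/P, and within the second set 7 and 1. The fold changes of both settings rest on the same 2 B1/P tumors, so their agreement is not separate support. The log2 CPM filter kept 23 members, of which 14, 12, 22, 20 and 21 were called higher in B1/P/Rbf against B1/P, in P/Rbf against B1/P and, against gland, in the B1/P/Rbf, the B1/P and the P/Rbf tumors, beside 9.80%, 9.56%, 19.8%, 18.1% and 18.0% of the 4549 genes. DESeq2 called 1 member lower in B1/P/Rbf against P/Rbf. The 1 member lower than gland was 0 in B1/P/Rbf without TMM, with limma-voom, without a filter, with the log2 CPM filter, with the library-set term and without any single sample (range 0 to 0), and 0 in P/Rbf without TMM and with the log2 CPM filter (range 0 to 1 over single samples). Except for the log2 CPM filter, which tested fewer members, the cause was not tested. Members with no call changed sign 16, 36 and 83 times in the 3 tumor comparisons, and 0 of these values was called. Among values given above, B1/P/Rbf against B1/P had Orc2 0.12 and Pold2 0.09 with the library-set term, Orc2 0.16, Pold2 0.13 and Rfc2 0.03 within library set 1, Pold2 0.00 without TMM, Pold2 0.02 without a filter and Pold2 0.01 with only the groups compared. Among values given above, P/Rbf against B1/P had Mcm3 -0.34, Cdc7 0.67, Prim2 -0.22, Pold2 -0.14, Rpa3 -0.33 and Rnaseh2a -0.09 with the library-set term, Mcm3 -0.34, Cdc7 0.67, Prim2 -0.22, Pold2 -0.14, Rpa3 -0.33 and Rnaseh2a -0.09 within library set 2, Pola2 0.00 and Pold2 -0.09 with limma-voom, Pola2 -0.28, Prim2 -0.04 and Fen1 -0.28 without P/Rbf tumors 2 and 4, Pold2 -0.07 and Rpa3 0.00 without TMM and Pold2 -0.13 with the log2 CPM filter. Among values given above, B1/P/Rbf against P/Rbf had Rrm2 0.00 without P/Rbf tumors 2 and 4. Among values given above, B1/P against normal gland had Rpa1 0.15 without TMM. On leaving out single samples, the range in B1/P/Rbf against B1/P was Gins4 from -0.08 to 0.14, Cdc7 from -0.47 to 0.00, Pold2 from -0.11 to 0.12 and Fen1 from -0.03 to 0.29, and the range in P/Rbf against B1/P was Mcm7 from -0.30 to 0.35, Cdc7 from -0.38 to 0.10, Pola2 from -0.12 to 0.29, Prim2 from -0.04 to 0.60, Pold2 from -0.07 to 0.11, Rfc3 from -0.58 to 0.00, Rpa3 from -0.07 to 0.29 and Fen1 from -0.03 to 0.38. No paired analysis was possible because the labels give the groups no shared replicate numbers. Orc1 in glands rested on 0.622 to 0.880 CPM, and counting error was not compared between members.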
